A study of Drosophila melanogaster with 8 samples.

Results

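The 10 genes Mhc, Mlc1, Mlc2, Prm, Mf, up, wupA, Tm2, bt and sls encode proteins of the muscle sarcomere, and they were read in targeted DamID profiles of RNA polymerase II (Pol II) from adult Drosophila midguts. They were chosen by name, as a test of muscle signal in dissected guts, and all 10 were among the 14000 genes tested, out of 15936 with a value. In targeted DamID, chosen cells express the bacterial adenine methylase Dam, either alone or joined to Pol II, and the GATC fragments that become methylated are sequenced. The value used is a log2 ratio, Dam-Pol II divided by Dam, so that a value above 0 marks a fragment methylated more by the fusion than by free Dam. The aim named in the labels is the comparison of terminal tracheal cells, whose fine branches bring air to the gut, between a control and a damaged intestine.

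All flies were w- and carried dSRF-GAL4 with UAS-CD8GFP over a wild-type chromosome, and tub-GAL80ts, a temperature-sensitive block of GAL4. They differed in the transgene carried opposite tub-GAL80ts, which was UAS-LT3-Dam in the control libraries and its Dam-Pol II version in the others. They were kept at 18 °C until 7 days of age and then at 29 °C for 24 hours, and over the last 16 hours they drank sucrose (Suc) or sucrose with a bacterial solution (Pe). There were 8 samples in 4 groups of 2, and each profile joins a Dam-Pol II and a Dam sample, giving 2 Pe and 2 Suc profiles. Each was made from 60 pooled midguts, so the other cells of the gut, its muscle included, were in the material, and which cells express Dam rests on dSRF-GAL4 alone. The Suc replicates correlated at r = 0.90 over all genes and the Pe replicates at 0.83, and sequencing depth is unknown.

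The gut of the fly is wrapped in circular and longitudinal visceral muscle, which is striated. In a sarcomere, myosin thick filaments slide along actin thin filaments, troponin and tropomyosin on the thin filament make this depend on calcium, and elastic titin-like proteins tie the thick filaments to the Z-disc. In Drosophila all muscle myosin heavy chains come from the gene Mhc by alternative splicing, while non-muscle cells use another heavy chain, encoded by zip. By design, DamID reads only the cells in which Dam is expressed.

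Most of the 10 sarcomere genes lay near 0 in all 4 profiles, and the myosin light chain genes Mlc1 and Mlc2 stood apart above the rest. A gene value is the mean log2 ratio over the fragments that overlap the gene, weighted by overlap length, and a gene was called occupied where its mean in a condition was above 0 at an adjusted limma p under 0.05 (one-sided). By that test 2 of the 10 genes, Mlc1 and Mlc2, were occupied in Suc, beside 21.3% of all genes tested. In Pe 0 of the 10 were called, beside 7.55% of all genes, and 1 of the 10, Mlc1, had an unadjusted p under 0.05, beside 32.5% of all genes. The median of the 10 was 0.04 in Suc and 0.03 in Pe, and that of all genes was 0.04 and 0.07. In this mixed tissue fewer Dam-expressing muscle cells and less Pol II per cell cannot be told apart.

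**Figure D1:**
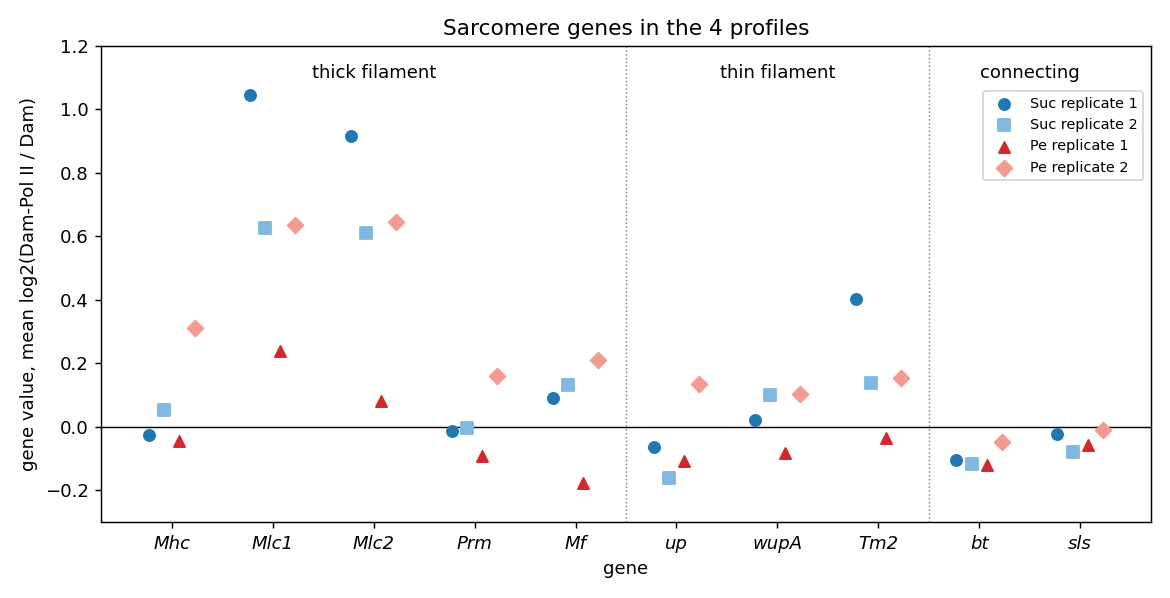
Gene values (mean log2 ratio, Dam-Pol II to Dam, vertical axis) of the 10 sarcomere genes in each of the 4 profiles, 1 symbol per profile, ordered by filament. Mlc1 and Mlc2 reach 1.05 and 0.91 in Suc replicate 1, and the other 8 genes stay between -0.18 and 0.40.

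Among the thick filament genes, Mlc1 encodes the essential (alkali) light chain of muscle myosin and lies at 3R:27657078-27660177 (BDGP 6), covered by 15 fragments. Its gene value was 1.05 in Suc replicate 1, 0.63 in Suc replicate 2, 0.24 in Pe replicate 1 and 0.64 in Pe replicate 2. All 4 profiles were above 0, and Pe replicate 2 lay just above the lower Suc profile, so the conditions overlapped. The mean was 0.84 ± 0.30 (SD, n = 2) in Suc, with an adjusted limma p of 0.036, and 0.44 ± 0.28 in Pe, with 0.123. In Suc this placed Mlc1 above 82.4% of all genes tested.

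Mlc2 encodes the regulatory light chain and lies at 3R:30171438-30174551, covered by 29 fragments. Its gene value was 0.91 and 0.61 in Suc replicates 1 and 2, and 0.08 and 0.65 in Pe replicates 1 and 2. Pe replicate 1 was near 0 while the other 3 profiles were above 0.6. The Suc mean was 0.76 ± 0.21 (SD, n = 2), with an adjusted limma p of 0.047, and the Pe mean was 0.36 ± 0.40, with 0.181. Neither light chain call held when any 1 of the 4 profiles was left out. Leaving out Pe replicate 1 or Pe replicate 2 also ended the calls of all other genes, so that loss was not particular to the light chains. Without Suc replicate 1 the Suc value was 0.63 for Mlc1 and 0.61 for Mlc2, and without Suc replicate 2 it was 1.05 and 0.91. With the median of the fragments as the gene value both calls were lost, at an adjusted limma p of 0.104 for Mlc1 and 0.153 for Mlc2. The Mlc2 call was also lost with fragments of a single gene, with the unweighted mean and with no minimum of fragments, at an adjusted limma p of 0.059, 0.063 and 0.051.

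Mhc, the myosin heavy chain itself, lies at 2L:16766566-16788766 and is covered by 126 fragments. Its gene value was -0.03 and 0.05 in Suc replicates 1 and 2, and -0.04 and 0.31 in Pe replicates 1 and 2. Only Pe replicate 2 stood clear of 0. Neither condition was called, with adjusted limma p of 0.854 in Suc and 0.316 in Pe. The heavy chain gene lay below both light chain genes in every profile.

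Prm encodes paramyosin, the core protein of invertebrate thick filaments, and lies at 3L:8732858-8745310. It read -0.01 in Suc replicate 1 and -0.0046 in Suc replicate 2, against -0.09 and 0.16 in Pe replicates 1 and 2. Mf encodes myofilin, another thick filament protein, and lies at 3R:15170625-15181510, inside the longer gene Gyc88E, so that all of its 33 fragments were shared and its value cannot be told apart from that gene's. In Suc Mf stood at 0.09 and 0.13, and in Pe at -0.18 and 0.21. For both genes the Pe profiles fell on either side of the Suc profiles.

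None of the 3 thin filament genes was called over its length. The gene up, which encodes troponin T (X:13593474-13602578), read -0.06 and -0.16 in Suc replicates 1 and 2, and -0.11 and 0.14 in Pe replicates 1 and 2. The troponin I gene wupA (X:18105568-18116922) stood at 0.02 and 0.10 in Suc, and at -0.08 and 0.10 in Pe. Tm2, a tropomyosin gene at 3R:15310193-15315197, had the third-highest Suc value of the 10, with 0.40 and 0.14 in Suc replicates 1 and 2, and -0.03 and 0.15 in Pe replicates 1 and 2. Its Suc mean of 0.27 ± 0.19 (SD, n = 2) was not called, with an adjusted limma p of 0.110.

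The titin-like genes were the longest of the 10 and lay slightly below 0. The gene bt, which encodes projectin (4:724400-776474, 158 fragments), read -0.10 and -0.12 in Suc replicates 1 and 2, and -0.12 and -0.05 in Pe replicates 1 and 2. For sls, the Sallimus and kettin gene (3L:2039681-2115611, 265 fragments), the Suc profiles gave -0.02 and -0.08 and the Pe profiles -0.06 and -0.01. All 8 values were below 0. The sls fragments centred from 69.0 to 72.9 kb from its low-coordinate end read 0 in all 4 profiles and entered the mean as 0. Mhc, Prm and up also held fragments at 0 in all 4 profiles. Whether such fragments lacked reads was not tested. In limma's one-sided test below 0 only bt had an unadjusted p under 0.05 among the 10, in each condition, and its adjusted p was 0.220 in Suc and 0.599 in Pe. That test called 0 of all genes (0%) in Suc and 0 (0%) in Pe, with 2205 and 1112 at an unadjusted p under 0.05. The gene bt lies on the small chromosome 4, where the median of the 86 genes tested was -0.21 in Suc and -0.09 in Pe.

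In order of the Suc mean the 10 genes ran Mlc1, Mlc2, Tm2, Mf, wupA, Mhc, Prm, sls, bt and up. The ranges of the Suc profiles of Mlc1 and Mlc2 overlapped, and those of Mlc2 and Tm2 did not. From Tm2 down to Prm each gene's Suc mean lay within 1 SD of its neighbour's, by the SD of the more variable gene. At the low end the Suc profiles of bt and up overlapped, and those of sls and bt did not. Gene length and Suc mean were ranked oppositely among the 10 (Spearman's rho = -0.72 over 10 genes) and not among all 14000 tested genes (-0.017). This is a description over genes that share the same libraries.

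Fragment by fragment, the sarcomere genes held short occupied stretches that the whole-gene means do not show. Of their 799 fragments, 15 were above 1 in both Suc profiles, which is 1.88%, beside 6.60% of all nuclear fragments. The long genes sls and bt held 265 and 158 of the 799, and 1 of the 15 each, while Mlc1 held 5 of the 15. In both Pe profiles 2 of the 799 were above 1, or 0.250%, beside 4.87% of all. The 2 fragments above 1 in all 4 profiles adjoin each other within Mhc.

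That Mhc stretch spans 332 bp at 2L:16767864-16768196, 1.30 kb inside the low-coordinate end of the gene. Its mean was 2.51 in Suc replicate 1, 1.45 in Suc replicate 2, 1.88 in Pe replicate 1 and 1.47 in Pe replicate 2. All 4 profiles were high there, although the whole gene lay near 0, and its 332 bp made up 1.50% of the gene. A further Mhc fragment of 320 bp, 17.4 kb from the low-coordinate end, was above 1 in Suc alone, with 1.36 and 1.04 there and -0.30 and 0.18 in Pe. The gene table used here gives neither exons nor strand, so no stretch was assigned to an exon, an intron or a promoter.

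In Mlc1 the occupied part was a large share of the gene. A run of 5 fragments, 870 bp long and 28.1% of the gene, averaged 1.69 and 1.38 in Suc replicates 1 and 2, and 0.43 and 0.998 in Pe replicates 1 and 2. In Mlc2 a single fragment of 27 bp was above 1 in both Suc profiles, while 11 of its 29 fragments were above 0.5 in both. The signal over Mlc2 was thus not held in a stretch above 1. The fragments above 0.5, some of them short, lay on either side of a low stretch. There a fragment of 110 bp read 0.12 and 0.02 in Suc replicates 1 and 2. The highest Mlc2 fragment of 100 bp or longer, by the mean of the profiles, reaches over the low-coordinate end and is shared with Rsod, whose own gene values ran from -0.08 to 0.13.

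Of the other genes, Tm2 held 515 bp over its low-coordinate end with means of 2.25 and 1.36 in Suc and 0.77 and 1.65 in Pe. At bt, a fragment of 904 bp at the low-coordinate end read 1.54 and 1.76 in Suc, and 0.44 and 1.42 in Pe, although the gene as a whole averaged below 0. The next bt fragment was above 0.5 in both Suc profiles as well, the only other one in the gene. In Mf 410 bp near the high-coordinate end read 1.11 and 1.78 in Suc, and 0.11 and 0.46 in Pe. In sls 348 bp, 48.6 kb from the low-coordinate end, read 1.11 and 1.39 in Suc, and -0.09 and 0.06 in Pe. The fragments on each side of it were also above 0.5 in both Suc profiles, and a fragment 51.1 kb from that end was below -1 in both, at -1.07 and -1.77. The genes up, wupA and Prm held no fragment above 1 in both profiles of a condition.

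**Figure D2:**
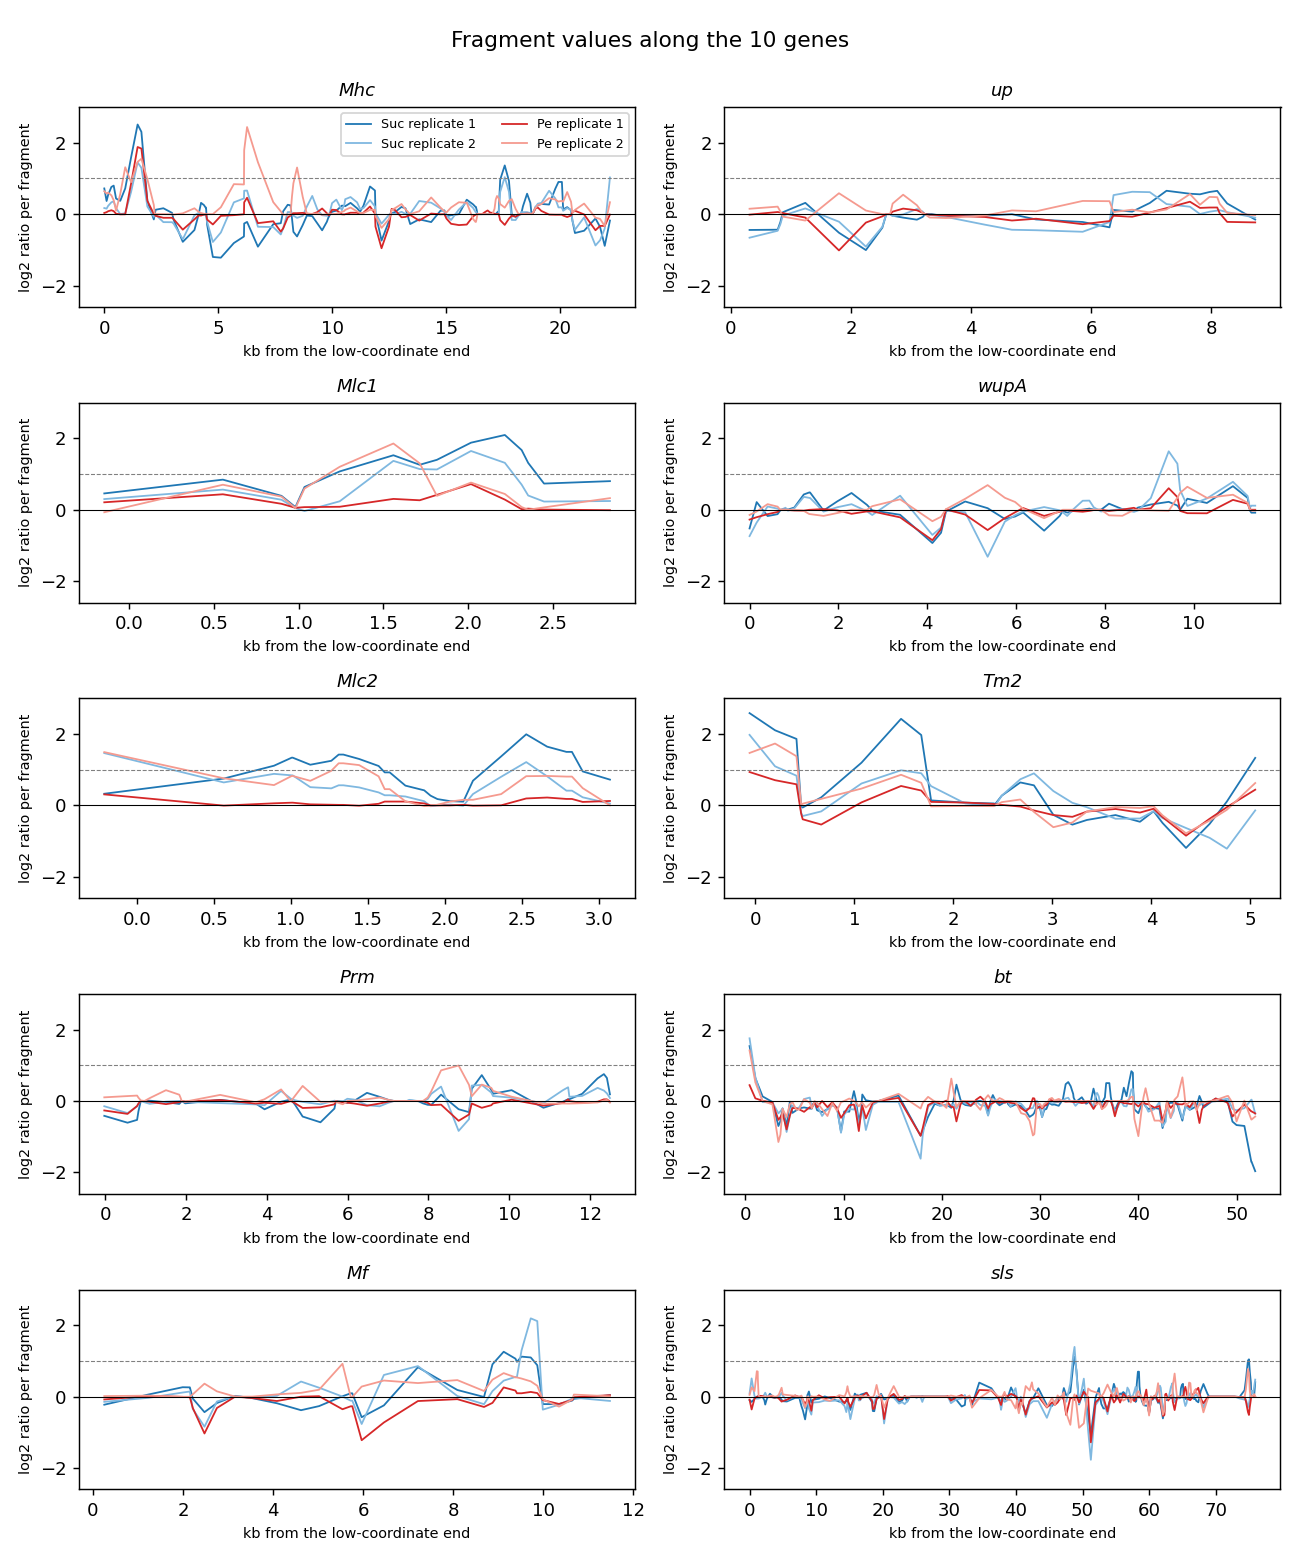
Log2 ratio of each GATC fragment (vertical axis) against the distance of its centre from the low-coordinate end of the gene (kb), 1 panel per gene and 1 line per profile, with a dashed line at 1. The peak 1.30 kb into Mhc is present in all 4 lines, and bt and sls show short peaks and dips on either side of 0. Mlc1 and Mlc2 are raised over much of their length in Suc, while Mlc2 lies near 0 over most of its length in Pe replicate 1.

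Along a gene, the replicates followed each other more closely in Suc than in Pe in every member except Tm2. The correlation between the Suc profiles over a gene's fragments lay between 0.49 (wupA) and 0.83 (Mlc1). Between the Pe profiles it was 0.89 in Tm2 and 0.53 in Mhc, and it was -0.66 in Prm. Fragments of a gene are not independent, so these values are descriptions.

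Windows around gene starts had been planned, but the gene table gives no strand. Windows of 500 bp on each side of both ends of every gene were therefore tested in the same way, a step chosen after seeing the data. The peaks at the low-coordinate ends of Tm2 and bt were known by then, so calls at those ends restate the peaks and are not separate support. In Suc 3 of the 20 end windows of the sarcomere genes were called, beside 23.2% of all end windows, and in Pe 1 of 20, beside 13.0%. The low-coordinate end of Tm2 was called in both conditions. It read 2.18 and 1.61 in Suc replicates 1 and 2, with an adjusted limma p of 0.016, and 0.85 and 1.24 in Pe replicates 1 and 2, with 0.045. Also called in Suc was the low-coordinate end of bt, with 0.80 and 0.90 and an adjusted limma p of 0.043. The low-coordinate end of Mlc1 had 0.55 and 0.36 and an adjusted limma p of 0.032. That window held 2 fragments, of which 1 was shared with the neighbouring gene tau, whose own gene values ran from 0.05 to 0.39. Its signal therefore cannot be assigned to Mlc1 alone. Leaving out either 1 of the Pe profiles ended all of these end-window calls. Over its whole length Tm2 was not called in either condition.

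**Figure D3:**
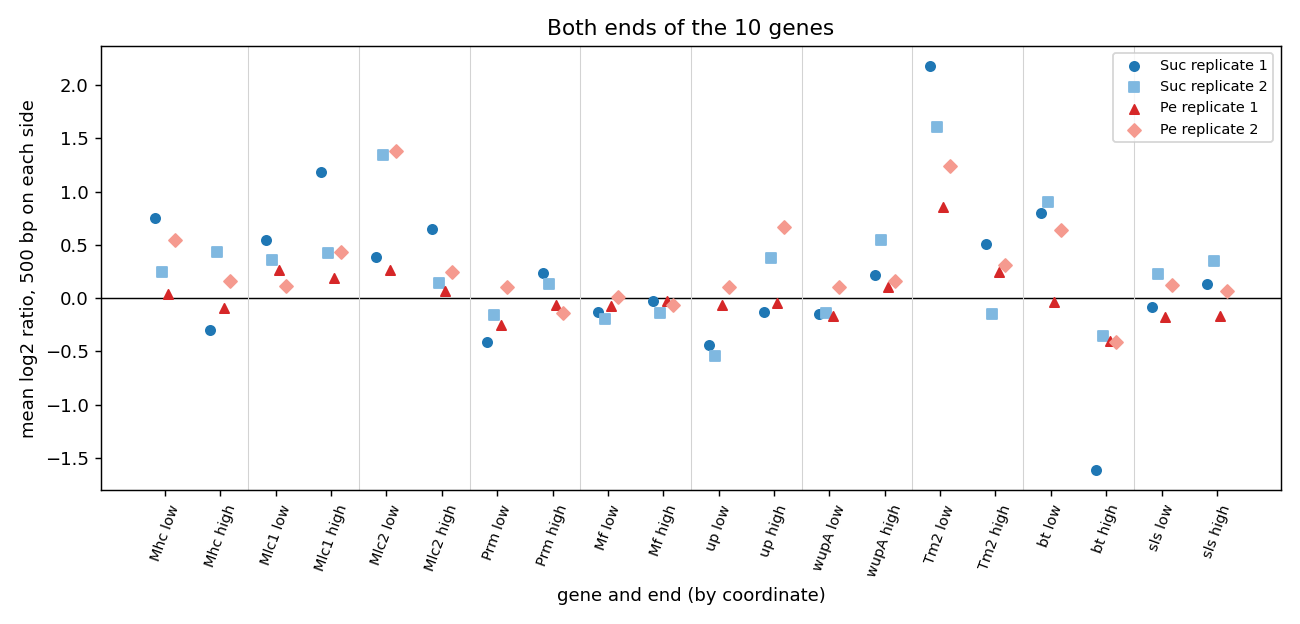
Mean log2 ratio in windows of 500 bp on each side of the low- and high-coordinate end of each gene (vertical axis), 1 symbol per profile. The low-coordinate end of Tm2 is above 0.85 in all 4 profiles, and the other ends range from -1.61 to 1.38.

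The second question is whether feeding Pe changed Pol II occupancy at the sarcomere genes. No change was detected: 0 of the 10 genes differed between Pe and Suc in limma's two-sided test, beside 0% of all genes tested, where the smallest adjusted p was 0.897 and 551 genes, 320 of them lower in Pe, had an unadjusted p under 0.05. None of the 10 was among those 551. In 0 of the 10 did both Pe profiles lie below both Suc profiles, beside 14.0% of all genes, and in 0 did both lie above, beside 23.0%. The differences of the light chain genes had the greatest size, -0.40 (SE 0.24) for Mlc1 and -0.40 (SE 0.26) for Mlc2, followed by Tm2 with -0.21 (SE 0.14). On the other side, up had 0.13 (SE 0.12) and Mhc 0.12 (SE 0.15). The long genes bt and sls had differences of 0.03 (SE 0.04) and 0.02 (SE 0.04).

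**Figure D4:**
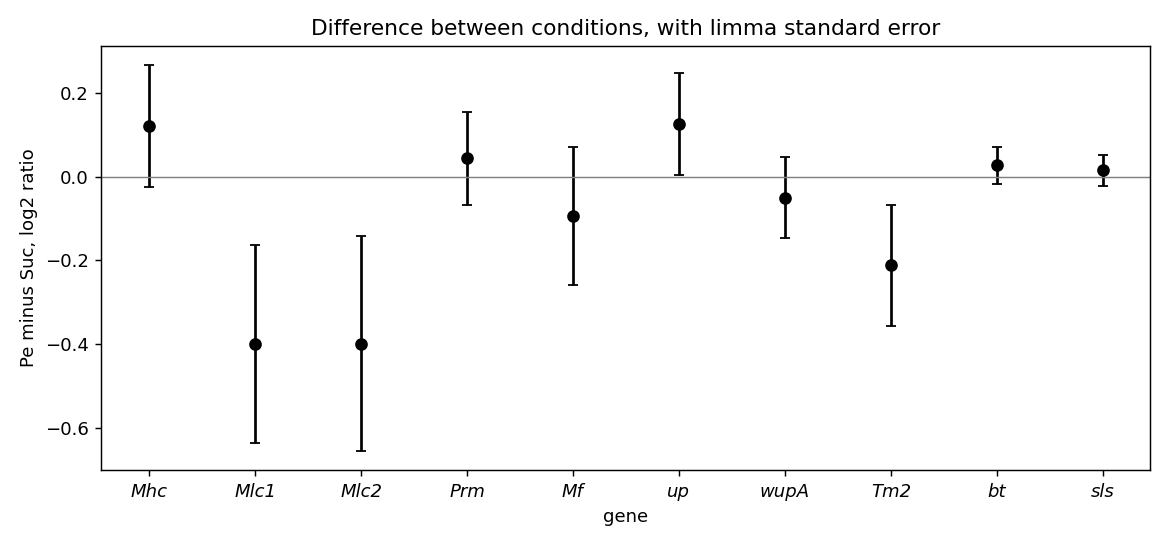
Difference between the Pe and Suc means on the log2 scale (vertical axis) for each sarcomere gene, with limma's standard error as bars (2 profiles a condition). Mlc1 and Mlc2 lie at -0.40 with standard errors of 0.24 and 0.26, and the bars of bt and sls are the shortest.

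At the ends of the genes 0 of the 20 windows were called different, beside 0% of all end windows. Of all 28906 end windows, 1516 had an unadjusted limma p under 0.05, and the smallest adjusted p was 0.790. The 3 windows of the sarcomere genes with an unadjusted p under 0.05 were the low-coordinate ends of up and Tm2 and the high-coordinate end of Prm, each with an adjusted limma p of 0.790. At up the Suc profiles read -0.44 and -0.55 and the Pe profiles -0.06 and 0.10, a difference of 0.51 (SE 0.12). At Tm2 the Pe window was lower by 0.85 on the log2 scale (SE 0.28), and at the Prm end the Suc profiles read 0.23 and 0.13 and the Pe profiles -0.07 and -0.14.

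The replicates of Pe differed from each other at the sarcomere genes in 1 direction. Pe replicate 1 was below Pe replicate 2 at 10 of the 10 genes, beside 62.6% of all genes tested. Their median was -0.07 in Pe replicate 1 and 0.16 in Pe replicate 2, while the median of all genes was 0.06 and 0.09. Suc replicate 1 was below Suc replicate 2 at 4 of the 10, beside 73.8% of all genes. The order seen in Pe was found at 17 of the 28 other sarcomere genes (60.7%) and 5 of the 9 muscle regulators (55.6%). In these lists it was not more frequent than among all genes. Calcium handling genes showed the order at 4 of 5 (80%) and non-muscle actomyosin genes at 6 of 8 (75%). It was also found at 4 of 4 neuron, 4 of 4 haemocyte and 5 of 6 enteroendocrine markers, so it was not confined to muscle genes. It was found at 0 of the 6 tracheal markers, whose medians were 0.56 and -0.17, and at 2 of the 8 enterocyte markers. The summed value of the 10 sarcomere genes ran from -0.39 to 2.30 in Pe and from 1.30 to 2.25 in Suc. For the tracheal markers the Pe sums ran from -0.15 to 3.32 and the Suc sums from 5.11 to 6.70, and for the enterocyte markers from 4.43 to 7.46 and from 10.8 to 12.9. The part of the other cell types in the sarcomere values was not tested.

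The remaining sarcomere genes were read from a list of 28, of which 5 passed the test of occupancy in Suc and 1 in Pe. Among all genes tested 21.3% passed it in Suc and 7.55% in Pe. The actin gene Act57B was the highest of the 28, with 1.37 and 1.43 in Suc replicates 1 and 2, and 0.38 and 1.25 in Pe replicates 1 and 2. Both Pe profiles were below both Suc profiles, and the difference of -0.58 (SE 0.34) was not called. Its adjusted limma p was 0.031 in Suc and 0.086 in Pe. Actin genes are similar in their coding sequence, and whether reads were split between them was not tested. The other muscle actin genes were not called in either condition, with Suc means of 0.18 for Act87E, -0.07 for Act88F and -0.17 for Act79B.

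The other calls in Suc were Actn, the Z-disc protein alpha-actinin, with a mean of 0.27 ± 0.02 (SD, n = 2), Lasp, an actin-binding protein of the Z-disc region, with 0.22 ± 0.10, and the genes of the actin capping protein subunits, cpa with 0.53 ± 0.21 and cpb with 0.45 ± 0.15. Capping protein and alpha-actinin also act on actin outside muscle. Actn was the gene of this list called in Pe, at 0.33 ± 0.05. Zasp52, a Z-disc PDZ-LIM protein, was among the highest 3 by the mean of the 4 profiles, but read -0.09 and 0.49 in Suc and 0.31 and 0.98 in Pe, and was not called.

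The calcium sensors of the thin filament, the troponin C genes, were not called in either condition. Their Suc means were 0.34 for TpnC47D, 0.14 for TpnC73F, -0.03 for TpnC25D, -0.04 for TpnC4 and -0.11 for TpnC41C. Tm1, the other tropomyosin gene, read 0.10 and 0.30 in Suc and 0.29 and 0.26 in Pe, with adjusted limma p of 0.081 and 0.064. TpnC25D, the obscurin gene Obsc (listed under its older name Unc-89) and Act79B had the lowest means over the 4 profiles, at -0.16, -0.15 and -0.14.

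Contractile genes of non-muscle cells were read for comparison. Of 8 non-muscle actomyosin genes 6 passed that test in Suc and 3 in Pe, beside 21.3% and 7.55% of all genes tested. The median of the 8 was 0.97 in Suc and 0.49 in Pe. The non-muscle myosin heavy chain gene zip read 0.33 and 0.59 in Suc replicates 1 and 2, and 0.43 and 0.47 in Pe replicates 1 and 2, above Mhc in every profile. Its adjusted limma p was 0.030 in Suc and 0.0499 in Pe, the latter just inside the threshold. The non-muscle regulatory light chain gene sqh read 0.59 and 1.26 in Suc and 0.44 and 0.42 in Pe, and the essential light chain gene Mlc-c 1.43 and 2.08 in Suc and 0.92 and 1.54 in Pe. Mlc-c was thus above Mlc1 in every profile, while sqh was below its muscle counterpart Mlc2 in Suc replicate 1 and Pe replicate 2.

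**Figure D5:**
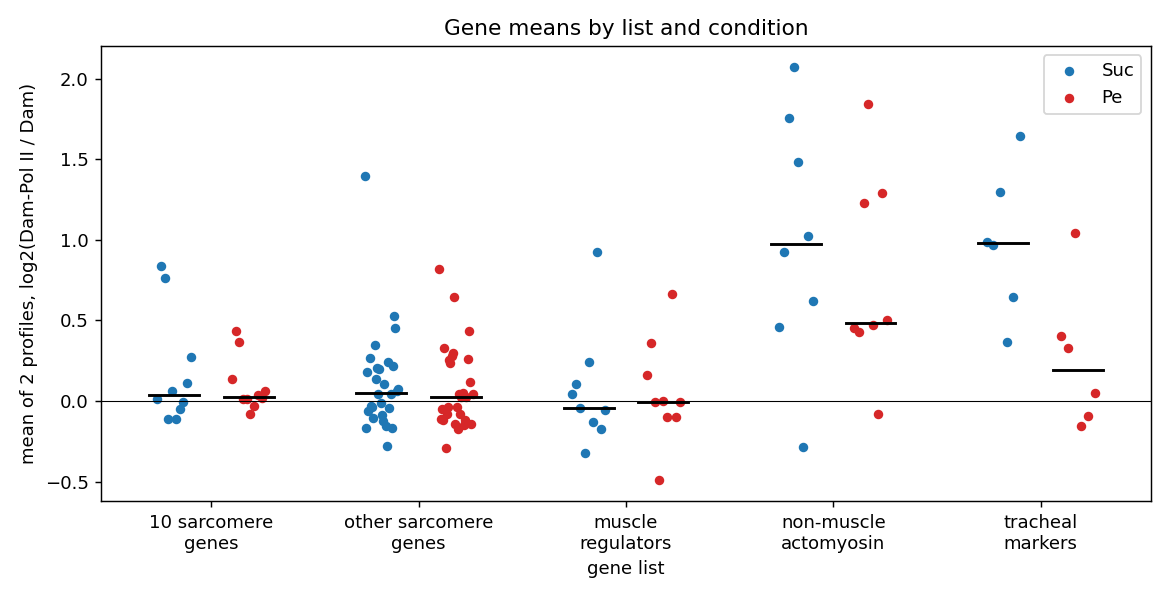
Mean of the 2 profiles of a condition (log2 ratio, vertical axis) for each gene of 5 lists, Suc in blue and Pe in red, with a black line at each list's median. The medians of the 10 sarcomere genes are 0.04 and 0.03, and those of the non-muscle actomyosin genes 0.97 and 0.49.

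Of 9 regulators of muscle identity 1, how, was called in Suc and 0 in Pe, beside 21.3% and 7.55% of all genes tested. The medians of the list were -0.04 and -0.0065. The gene how, which encodes an RNA-binding protein, read 0.70 and 1.14 in Suc and 0.66 and 0.66 in Pe. At the other end lay bap, a homeobox factor of visceral mesoderm, with -0.33 and -0.32 in Suc and -0.53 and -0.45 in Pe, not called below 0. Mef2, the general muscle transcription factor, read -0.11 and 0.19 in Suc and 0.07 and 0.25 in Pe. The visceral muscle factor bin read -0.04 and -0.05 in Suc and 0.0034 and -0.02 in Pe, and HLH54F, which acts in longitudinal visceral muscle founders, read 0.13 and 0.35 in Suc and 0.04 and -0.04 in Pe. Hand, a factor of visceral muscle and heart, spread widely, from -0.22 to 0.43 in Suc and from -0.06 to 0.77 in Pe.

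The labelled cell type was checked on 6 tracheal markers, of which 4 were occupied by the same test in Suc and 1 in Pe. The shares of all genes, for this and the other marker lists, were 21.3% in Suc and 7.55% in Pe. The driver's own gene bs read 0.84 and 1.13 in Suc and 0.55 and 0.26 in Pe, and the FGF receptor gene btl 0.89 and 1.05 in Suc and 0.57 and 0.09 in Pe. Those not called in Suc were trh and vvl, at an adjusted limma p of 0.175 and 0.086. Their Pe means were -0.16 and -0.09. The median of the tracheal markers was 0.98 in Suc and 0.19 in Pe, and that of the enterocyte markers 1.40 and 0.64. Of 8 enterocyte markers 6 were called in Suc and 2 in Pe, so the profiles also held signal at genes of the gut epithelium. The 15 muscle markers, which include the 10 genes, had 3 called in Suc and 0 in Pe, with medians of 0.04 and 0.04. Haemocyte and neuron markers had 0 of 4 and 0 of 4 called in either condition, enteroendocrine markers 0 of 6, and stem cell and enteroblast markers 2 of 3 in Suc and 0 of 3 in Pe.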

How the data were processed

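Pol II occupancy was measured in 8 libraries, and 4 profiles were used, matched by condition and replicate to the Dam-Pol II samples. The authors deposited log2 ratios per GATC fragment, taken to be log2 from their range. For the log base, the aligner and the scaling, sources used here give nothing. The build is BDGP 6, per the submitters' processing notes. The track of Suc replicate 2 carries another number in its file, and its replicate was taken from the labels, which call replicates biological.

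Genes were placed by a RefSeq Release 6 table without strand or exons. The 28 mitochondrial fragments were left out, and 383654 remained. Genes with at least 3 fragments, not 0 in every profile, were tested (14000). Of these, 77.4% shared a fragment with another gene. Of 92 list genes 91 matched, 1 by a synonym.

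The fit used limma 3.58.1 (R 4.3.3), 1 spread for both conditions, a prior variance trended on fragment number and Benjamini-Hochberg adjustment over all genes at 0.05. End windows needed 2 fragments. The fit of Pe minus Suc was tested on simulated data with 200 changed genes, drawn independently for each profile. The occupancy test was not simulated. The members, lists and alternatives were chosen with earlier results of these data known. Genes named are the 10 members, the troponin C, tropomyosin 1 and muscle actin genes, the 3 highest and 3 lowest and all called ones of the other sarcomere genes, and fixed non-muscle, regulator and tracheal genes. Rsod, Gyc88E and tau share fragments with a member, and how and bap, the highest and lowest muscle regulators, were named after their values were seen. The tracheal genes trh and vvl were also named after their values were seen. The alternatives were other scalings, fragment filters, gene values and prior variances, the replicate number as a block, each profile left out and other fragment thresholds. Tests at gene starts could not be made without strand. Depth is unknown, so no interval that needs it was computed.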

Additional observations from a re-analysis of the deposited data

How the results depend on the processing

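Of the 10 sarcomere genes, 0 were called in Pe, below 0 or different between conditions under any alternative. The Suc count of 2 was 1 with no minimum of fragments, with the unweighted mean, with fragments of a single gene (9 genes, since Mf has none) and with the replicate block, 0 with the median of the fragments, and 0 without any 1 profile. The call lost with the replicate block was that of Mlc2, at an adjusted limma p of 0.056. The other sarcomere genes, 5 in Suc, were 3 under median and MAD scaling, 3 with single-gene fragments and 1 with the median, and 0 to 4 without 1 profile; in Pe, where 1 was called, they were 7 under quantile normalization, 6 under median and MAD scaling, 3 with the replicate block, and 0 with the median, single-gene fragments or 1 prior variance, and 0 to 4 without 1 profile. The non-muscle genes, 6 in Suc, were 1 with the median and 0 to 7 without 1 profile; in Pe, where 3 were called, they were 6 under each scaling, 5 with the replicate block, 1 with no minimum, at least 10 fragments or 1 prior variance, 0 with the median or single-gene fragments, and 0 to 6 without 1 profile. The members' end windows, 3 in Suc, were 5 with the replicate block and 0 to 2 without 1 profile, and the 1 in Pe was 0 with windows of 250 bp and with quantile normalization, and 0 to 1 without 1 profile. The members' fragments above 0.5 numbered 44 in Suc and 8 in Pe, and above 2, 0 and 0. The share of all fragments was computed only above 1, so these counts have no share beside them. With the median of the fragments, the Suc means of Actn and Lasp were 0, and zip had -0.044 in Suc and -0.010 in Pe. The cause of these changes was not tested. Where a profile is left out, the remaining profile of its condition is assumed to vary like the other condition's.

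After quantile normalization 31.2% of all genes passed the occupancy test in Suc and 31.3% in Pe, and 27.5% and 26.4% under median and MAD scaling. Without Pe replicate 1, and without Pe replicate 2, 0 of all genes were called occupied. The sign of Pe minus Suc changed at 3 of the 10 genes under each of these scalings and at 0 to 4 without 1 profile. The same-numbered Pe and Suc profiles deviated together at r = 0.28 over all genes, with only 2 pairs, so the numbers were not taken as pairs. With 2 profiles a condition and unknown depth, small differences at these genes were not detectable. A larger difference, -1.57 (SE 0.23) at an enterocyte marker, was not called either, with an adjusted limma p of 0.897. The absence of a call therefore does not exclude a large change. The planned tests at gene starts were not run, because the gene table gives no strand.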

Other observations

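Calcium handling in muscle was read from 5 further genes. Beside 21.3% of all genes in Suc and 7.55% in Pe, 1 of the 5 passed the occupancy test in Suc and 0 in Pe. That gene was SERCA, the calcium pump of the endoplasmic and sarcoplasmic reticulum, which acts in all cells and was named after its values were seen. It read 0.41 and 1.0 in Suc replicates 1 and 2, and 0.49 and 0.51 in Pe replicates 1 and 2, with an adjusted limma p of 0.046 in Suc. The ryanodine receptor gene RyR, which encodes the calcium release channel of the reticulum and was also named after its values were seen, read -0.09 and -0.10 in Suc, and -0.09 and -0.02 in Pe.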
